A study of Mus musculus with 6 samples.

Results

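Aminoacyl-tRNA synthetases are the enzymes that join each amino acid to its transfer RNA, the step that fixes the genetic code before the ribosome reads it. Mammalian cells keep a cytosolic set and a mitochondrial set, and both are encoded in the nucleus, so that most amino acids have a pair of genes. Several cytosolic synthetases are held in a multi-synthetase complex by scaffold proteins, and the others work outside that complex. Genes of many cytosolic synthetases are targets of Atf4, the transcription factor of the amino acid response, which is induced when amino acids run short or when eIF2alpha kinases are active. A maturing red cell makes large amounts of globin and so depends on charged transfer RNA.

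The synthetase genes were found by their symbols among probe sets that the array annotation assigns to a single gene. This gave 35 genes with 72 probe sets, of 18193 genes and 45101 probe sets in all. Of these, 19 genes with 40 probe sets were counted as cytosolic, and 16 genes with 32 probe sets, those with a symbol ending in 2, as mitochondrial. Gars and Kars are counted as cytosolic here, although each is known to supply both compartments from 1 gene. The synthetase genes for aspartate were not analysed here.

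Early erythroid progenitors were sorted by FACS from fetal liver at embryonic day 13.5, and their RNA was run on 6 Affymetrix mouse arrays. The labels number 1 liver for each array. The wild-type group has 3 arrays, and the other 3 carry the label Eklf -/-, a knockout of the gene now named Klf1, a zinc finger activator of red cell genes. All carry the C57BL/6 strain label, although the labels trace the knockout allele to genomic clones of strain 129, placed in C57BL/6 blastocysts. The sort is given only as 7AAD, CD71 and Ter119 staining, and the labels do not say whether the groups shared litters. The values are MAS5 signals on a linear scale, with every array scaled to the same trimmed mean, and 3 arrays a group limit the precision of every value here.

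The Klf1 probe set overlapped between groups. It gave 2508, 2706 and 4030 in the wild-type-labelled group against 3505, 1391 and 2545 in the knockout-labelled group (log2 difference -0.38 ± 0.32, SE; limma adjusted p = 0.347). No source used here places that probe set inside or outside the disrupted stretch, and outside it the probe set would check nothing, so groups are named by their labels. Erythroid markers were present on all arrays, and 5 of 5 that could be measured (Gata1, Tfrc, Epor, Alas2 and Kel) were higher on the knockout-labelled arrays. Their summed signal was 11089 to 11460 on the wild-type-labelled arrays and 40294 to 52546 on the knockout-labelled arrays. Other cell types' markers also differed by group. All 7 hepatocyte markers tested were higher (summed signal 7269 to 7965 on the wild-type-labelled and 91790 to 158408 on the knockout-labelled arrays), as were 6 of 6 stromal and endothelial markers (1397 to 1438 against 11765 to 17006) and 5 of 5 megakaryocyte markers (6254.5 to 7141 against 27646 to 36317). All 6 lymphoid markers tested were lower (22773 to 24518 against 2208 to 2501). Of 7 macrophage markers tested 5 were higher and 1 lower (10005 to 12380.5 against 10525 to 14169), and of 6 neutrophil markers 3 were lower (123350 to 142790 against 75019 to 159296). The lymphoid sum includes Cd3e and the macrophage sum C1qa, neither of them tested. Both were higher on every knockout-labelled array (means 34.15 against 71.35 and 10.5 against 772). No marker was listed at 0, but 1 hepatocyte, 3 macrophage, 1 lymphoid and 2 stromal markers had a wild-type mean under the intensity filter, and 3 lymphoid markers a knockout mean under it. Synthetases are made in every cell type, the part of these cells in the results below was not tested, and in sorted cell pools fewer cells of a type and less RNA per cell cannot be told apart.

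Of 34 synthetase genes bright enough to be tested, 9 rose on the knockout-labelled arrays and 0 fell, by limma with Benjamini-Hochberg adjustment over 12799 genes at a threshold of 0.05. Over all genes tested, 27.9% were called higher and 20.8% lower, so the share of synthetase genes that rose (26.5%) lay near the background. Without adjustment, 11 had a p under 0.05 upward and 1, Farsb, downward. Mars2, the mitochondrial methionine enzyme, was under the intensity filter (a mean signal of 98.6) and was not tested. The 9 genes were cytosolic Cars, Sars, Nars, Aars, Yars and Tars, and mitochondrial Fars2, Sars2 and Ears2, for cysteine, serine, asparagine, alanine, tyrosine, threonine, phenylalanine, serine and glutamate. The median log2 difference was 0.13 over the 34 genes and 0.14 over all genes. The median of all genes differed with brightness, as given below.

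**Figure D1:**
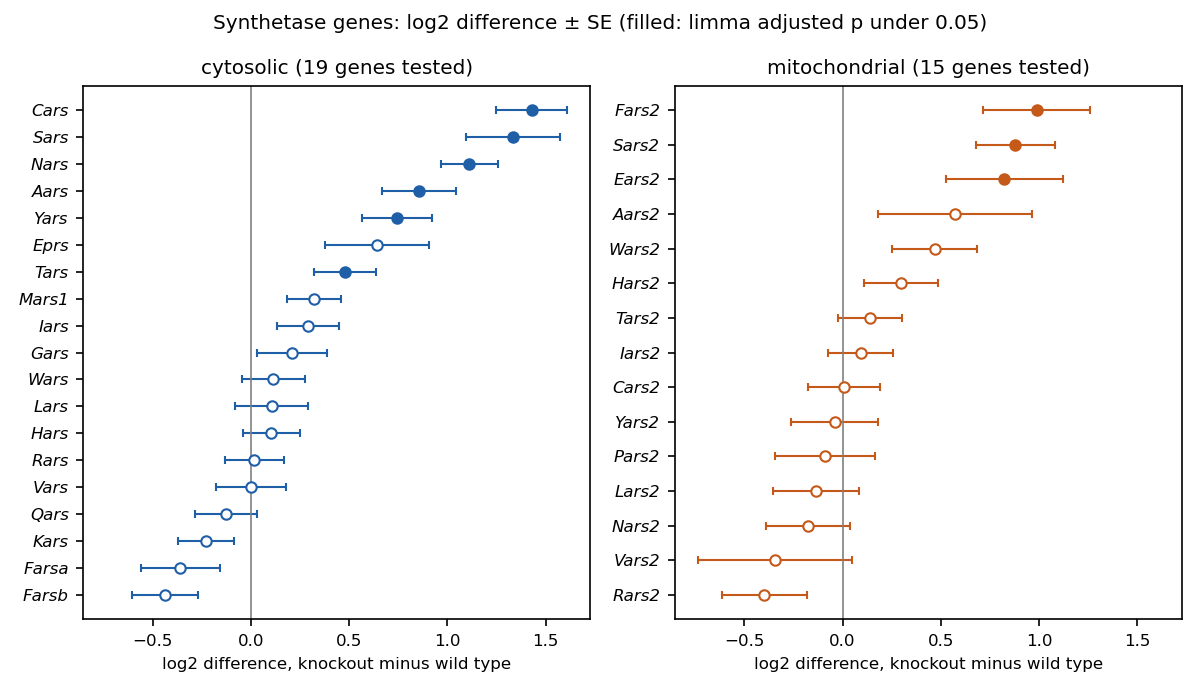
Log2 difference (knockout minus wild type, x axis) with its standard error for each synthetase gene tested, in 19 cytosolic genes (left) and 15 mitochondrial genes (right); filled points had a limma adjusted p under 0.05. The filled points number 6 on the left and 3 on the right, all to the right of 0, and the lowest value is -0.44 for Farsb.

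These calls changed with the scaling of the arrays. The median signal of an array was 97.7 to 140 in the wild-type-labelled group and 204 to 218 in the knockout-labelled group. After quantile normalization 10 cytosolic and 2 mitochondrial genes rose and 0 fell (17.4% higher and 21.4% lower over all genes), and after cyclic loess 9 and 1 rose and 0 fell (17.9% and 20.8%). After median centring, which lowered the median of all genes to -0.68, 0 rose and 9 cytosolic and 9 mitochondrial genes fell, where 8.48% of all genes rose and 47.9% fell. Among all genes the share of calls that were higher went from 57.3% as deposited to 44.8%, 46.3% and 15% under these scalings. Relative to the median of all genes, the cytosolic median stood at 0.07 as deposited and at 0.47, 0.43 and 0.07 under quantile, loess and median scaling. It lay below that median with no intensity filter (-0.18), with each gene's second probe set (-0.08) and without knockout-labelled array 2 (-0.07). The mitochondrial median stood at -0.05, 0.02, -0.04 and -0.05. With no intensity filter it was -0.34 and with each gene's second probe set -0.28. It was 0.27 with the mean of probe sets and 0.15 with a 60th percentile filter.

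**Figure D2:**
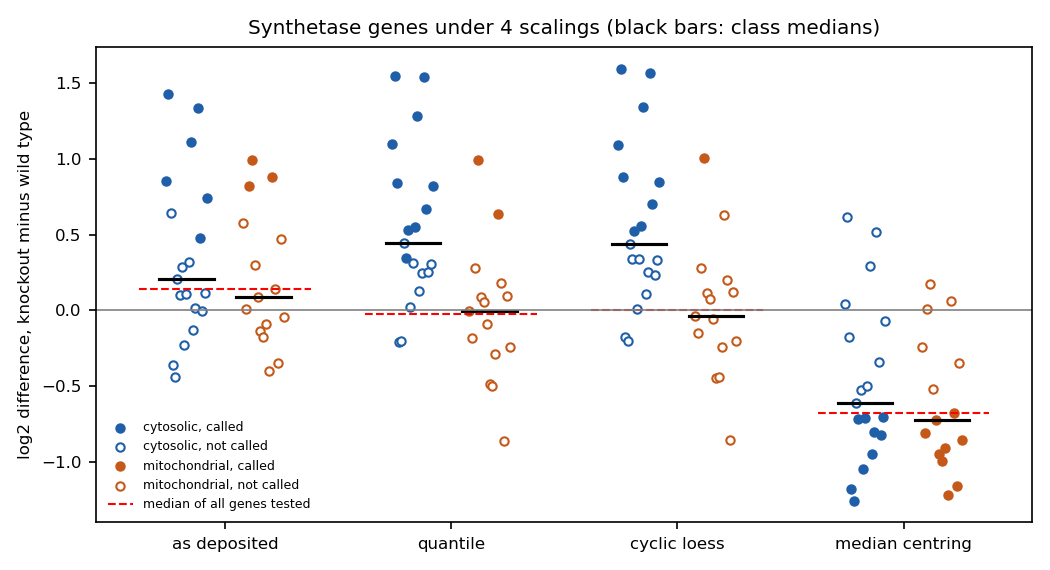
Log2 difference (y axis) of each synthetase gene as deposited and under quantile, loess and median scaling (x axis); filled points are called at a limma adjusted p under 0.05, black bars are the class medians and red dashes the median of all genes tested. The cytosolic median lies above the red line under these 4 scalings, by 0.07 to 0.47, although below it with no intensity filter (-0.18), with second probe sets (-0.08) or without knockout-labelled array 2 (-0.07), while every point shifts down after median centring.

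Among cytosolic synthetases the largest difference was that of Cars, the cysteine enzyme. It gave 728, 693 and 835 in the wild-type-labelled group against 1683, 2376 and 2056 in the knockout-labelled group. The groups did not overlap, and the difference was 2.69-fold (log2 1.43 ± 0.18, SE; limma adjusted p = 0.0003). Its other probe set was dim, at 14.9 to 20.5 against 34.7 to 73. Sars, the serine enzyme, which also charges the transfer RNA for selenocysteine, gave 2198, 2127 and 2948 against 4245, 7842 and 6630. It rose 2.52-fold (log2 1.33 ± 0.24, adjusted p = 0.00188), with knockout-labelled array 1 the lowest of its group. The other Sars probe set, in a fit over 27023 probe sets where 28.1% were called higher and 15.7% lower, rose by 0.91 (adjusted p = 0.0144).

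Nars, the asparagine enzyme, stood at 3861, 3662 and 3477 and at 7095, 8632 and 8087. This was a 2.16-fold rise (log2 1.11 ± 0.14, adjusted p = 0.000336), but only in this probe set. The other Nars probe set gave 4948, 4784 and 5099 against 5449, 5849 and 4249, with a log2 difference of 0.06 (adjusted p = 0.798), and its groups overlapped. The signal ratio of the second to the first probe set was 1.28, 1.31 and 1.47 in the wild-type-labelled group and 0.768, 0.678 and 0.525 in the other, so the 2 probe sets did not change alike.

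Aars, the alanine enzyme, rose in both of its probe sets. The brighter gave 2310, 2343 and 2814 against 3615, 5568 and 4482, a 1.81-fold rise (log2 0.86 ± 0.19, adjusted p = 0.00526), and the other 0.97 (adjusted p = 0.00404 among probe sets). Yars, for tyrosine, was at 705, 722 and 895 against 1177, 1453 and 1251. It rose 1.67-fold (log2 0.74 ± 0.18, adjusted p = 0.00801). Tars, for threonine, gave the smallest rise, from 1556, 1464 and 1289 to 1821, 2000 and 2177, or 1.39-fold (log2 0.48 ± 0.16, adjusted p = 0.0316). In all 6 genes every knockout-labelled array lay above every wild-type-labelled array. Over all genes such a separation upward was seen in 34.1%.

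Tars lost its call in 4 of 6 leave-one-array-out fits (adjusted p 0.0584 without wild-type-labelled array 1, 0.0777 without array 2, 0.0776 without knockout-labelled array 2 and 0.113 without array 3). It was also lost with the replicate number as a block (adjusted p = 0.0531). The calls of Cars, Sars, Nars, Aars and Yars held in all 6 fits that left out an array, and each was lost after median centring (log2 0.61, 0.52, 0.30, 0.04 and -0.07).

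**Figure D3:**
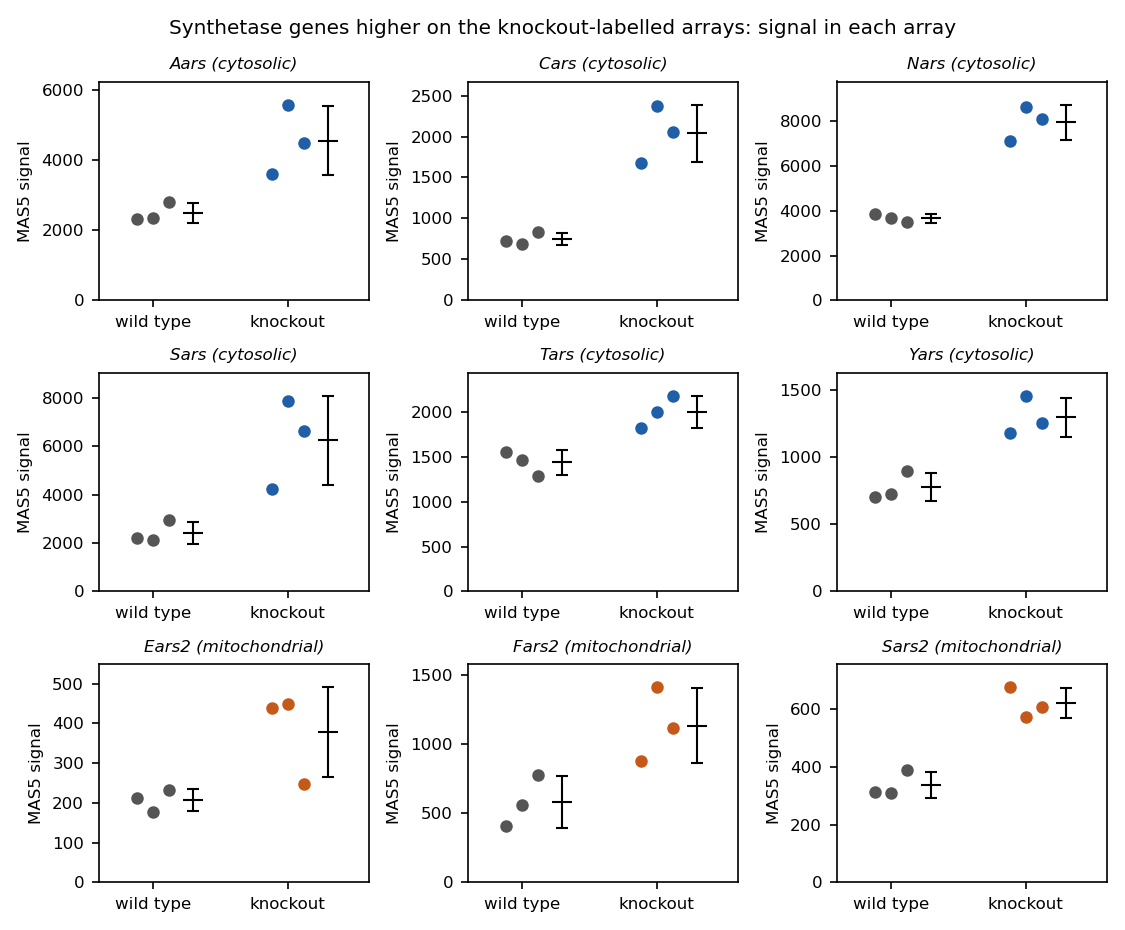
MAS5 signal (y axis, linear, from 0) on each array for the 9 synthetase genes that rose; grey points are the wild-type-labelled arrays, coloured points the knockout-labelled arrays, and bars give the mean ± SD of 3 arrays. The groups do not overlap in any panel, and they come closest in Ears2, at 233 and 246.

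The cytosolic enzymes that rose all stand outside the multi-synthetase complex. Of 12 genes outside it 6 rose, and of the 7 complex members measured (Eprs, Iars, Kars, Lars, Mars1, Qars and Rars) 0 rose and 0 fell by limma, with a p under 0.05 before adjustment for Eprs and Mars1. Over all genes 27.9% were called higher and 20.8% lower. The median log2 difference was 0.34 outside and 0.11 inside the complex. The difference between these classes was not tested, since genes are not replicates. After quantile normalization and after cyclic loess 3 complex members rose, against 7 and 6 outside it (17.4% and 17.9% of all genes). Eprs, a fused enzyme for glutamate and proline, came closest, at 2503, 2467 and 1249 against 2681, 3446 and 3163 (log2 0.64 ± 0.26, adjusted p = 0.0706). Wild-type-labelled array 3 was low in all 4 Eprs probe sets, and 1 of these rose (log2 1.05, adjusted p = 0.0174 among probe sets). The brightest passed with the replicate number as a block (adjusted p = 0.0462) and without wild-type-labelled array 1 (log2 0.81, adjusted p = 0.047).

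Mars1, for methionine, was higher on every knockout-labelled array, at 2001, 2024 and 2131 against 2488, 2621 and 2569, a step of 0.32 ± 0.14 that missed the threshold (adjusted p = 0.0816). Kars, for lysine, was lower on every knockout-labelled array, at 2806, 2448 and 2572 against 2151, 2309 and 2217 (log2 -0.23 ± 0.14, adjusted p = 0.208). Kars and Farsb were the 2 synthetase genes separated downward, as were 25.2% of all genes. The other 4 complex members had overlapping groups and log2 differences from -0.13 (Qars) to 0.29 (Iars) in their brightest probe sets. Further tested Qars probe sets gave 0.45, called higher (limma adjusted p = 0.0372 among probe sets), and -0.39, not called. The 3 scaffold proteins of the complex did not pass either: Aimp2 gave -0.45 (adjusted p = 0.058), Aimp1 -0.12 and Eef1e1 0.23. Aimp2 was at 2347, 2257 and 2645 against 2111, 1466 and 1772, with no overlap, and it fell without knockout-labelled array 1 (log2 -0.58, adjusted p = 0.0246).

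The phenylalanine enzyme of the cytosol is built of 2 subunits, and neither rose in its brightest probe set. Farsb, the beta subunit, gave 2832, 2517 and 2733 against 2416, 1900 and 1707, with no overlap, and did not pass (log2 -0.44 ± 0.17, adjusted p = 0.0578). It fell without knockout-labelled array 1 (log2 -0.58, adjusted p = 0.0174). Another Farsb probe set fell (log2 -0.57, adjusted p = 0.0319 among probe sets), and the remaining tested one gave -0.06. Farsa, the alpha subunit, gave 1425, 1331 and 1951 against 1362, 1013 and 1268 (log2 -0.36 ± 0.20, adjusted p = 0.162). Its 3 other probe sets were dim, at 39.3 to 171 on the wild-type-labelled arrays, and gave 0.92 to 1.96, of which 2 were called higher. Both of these had a wild-type geometric mean (58.6 and 58.8) under the filter and so passed it only through the knockout-labelled arrays, where they were high. The mean of the 4 Farsa probe sets, which includes them, was called higher (log2 1.08, adjusted p = 0.0131), against the sign of the brightest.

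Hars, for histidine, showed the widest split among bright probe sets. The brightest gave 3736, 3352 and 3971 against 3805, 4212 and 3851, with overlap and a log2 difference of 0.10 ± 0.14 (adjusted p = 0.57). The other gave 1114, 1289 and 1100 against 3721, 4548 and 4606, a log2 difference of 1.88 (adjusted p = 6.2e-05 among probe sets). Their ratio was 0.298, 0.385 and 0.277 in the wild-type-labelled group and 0.978, 1.08 and 1.20 in the knockout-labelled group. The part of the transcript each probe set covers was not analysed here. The remaining cytosolic genes, Gars, Wars and Vars, had overlapping groups and log2 differences of 0.21, 0.11 and -0.002. Gars stayed between 4171 and 6424 on all 6 arrays.

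**Figure D4:**
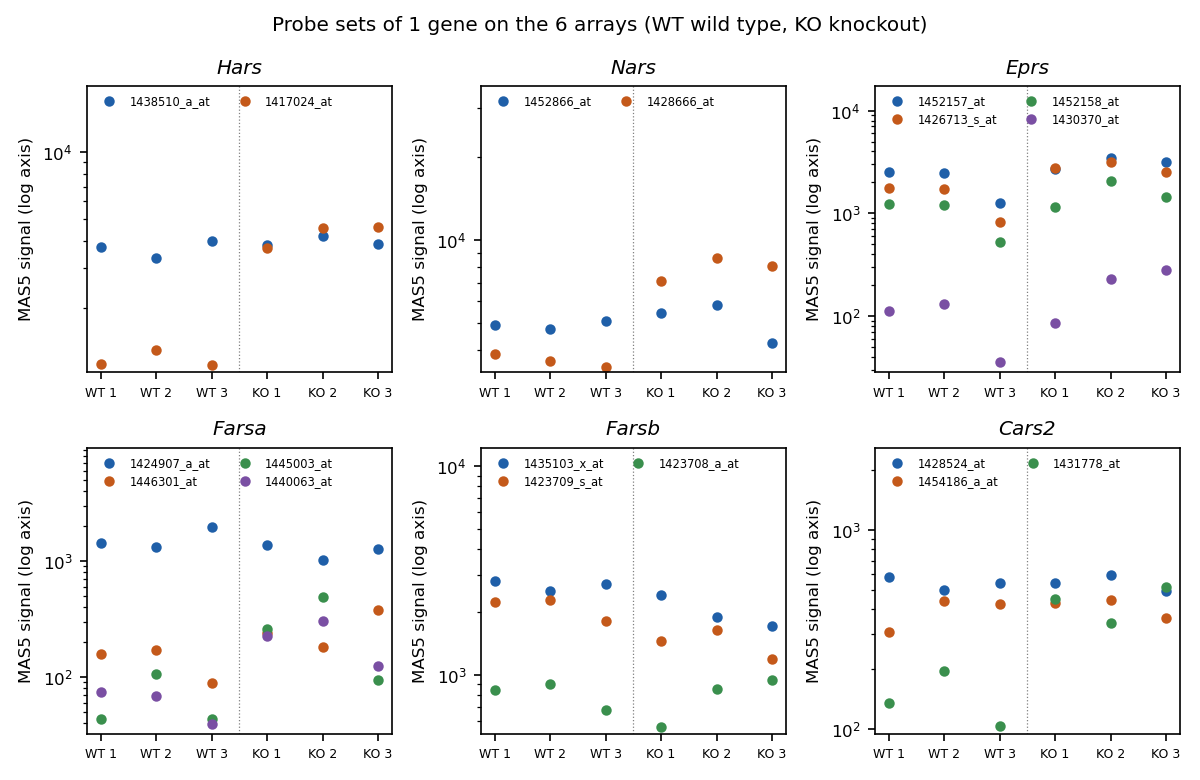
MAS5 signal (y axis, log scale) on the 6 arrays (x axis, WT wild type, KO knockout) for every tested probe set of Hars, Nars, Eprs, Farsa, Farsb and Cars2, 1 colour per probe set. In Hars the dimmer probe set moves from 1100 to 1289 up to 3721 to 4606, while the brighter stays between 3352 and 4212.

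Of 15 mitochondrial synthetase genes tested 3 rose and 0 fell, and without adjustment the counts were the same; their share called higher, 20%, was under the 27.9% of all genes. Sars2, the mitochondrial serine enzyme, rose 1.84-fold, from 314, 309 and 389 to 675, 573 and 607 (log2 0.88 ± 0.20, adjusted p = 0.00639). Its call was lost after cyclic loess (log2 0.63, adjusted p = 0.0532) and after median centring (log2 0.06, adjusted p = 0.862). Fars2, which carries phenylalanine to mitochondrial transfer RNA as a single chain, gave 405, 561 and 779 against 876, 1415 and 1117. It rose 1.98-fold (log2 0.99 ± 0.27, adjusted p = 0.0149). Without wild-type-labelled array 1 its adjusted p was 0.0514, and without knockout-labelled array 2 it was 0.0594. The other Fars2 probe set was not called (log2 0.57, adjusted p = 0.207 among probe sets). Ears2, for glutamate, gave 213, 176 and 233 against 438, 448 and 246 (log2 0.82 ± 0.30, adjusted p = 0.0447). Its call held in 5 of 17 alternatives and failed in 5 of 6 leave-one-array-out fits. The arrays were wild-type-labelled arrays 1, 2 and 3 (adjusted p 0.0924, 0.126 and 0.0527) and knockout-labelled arrays 1 and 2 (0.116 and 0.138). It was also lost with the replicate number as a block (adjusted p = 0.0534) and in the fit over probe sets (adjusted p = 0.0586).

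The other 12 mitochondrial genes had log2 differences from -0.40 to 0.57. Rars2, for arginine, was lowest (1571, 1599 and 1064 against 1282, 1008 and 903; adjusted p = 0.153), and it fell without wild-type-labelled array 3 (log2 -0.59, adjusted p = 0.0278). Hars2 and Wars2 were higher on every knockout-labelled array without passing, by 0.30 (adjusted p = 0.217) and 0.47 (adjusted p = 0.0992). A second Wars2 probe set was called higher (0.68, adjusted p = 0.0347 among probe sets). Cars2, for cysteine, was level in its brightest probe set (577, 498 and 542 against 539, 593 and 496; log2 0.01), while a dimmer one was called higher (136, 196 and 103 against 448, 342 and 519; log2 1.62, adjusted p = 0.00486 among probe sets). In Lars2, for leucine, the bright probe set gave -0.13 and a dim one 2.44 (21.1, 33.1 and 270 against 252, 501 and 238), called higher with 2 of its 3 wild-type values below the filter (adjusted p = 0.0436 among probe sets).

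Probe sets therefore matter for the count. Of 19 synthetase genes with more than 1 tested probe set, 6 had probe sets on both sides of 0 (Farsa, Qars, Hars2, Iars2, Lars2 and Vars2). Qars, for glutamine, gave -0.13 and -0.39 in 2 probe sets and 0.45 in another (adjusted p = 0.0372). The second Hars2 probe set gave -0.83, with 1 array at 34, and those of Iars2 and Vars2 gave -0.07 and 0.006; none of these 3 passed. Both Yars2 probe sets were below 0, at -0.04 and -1.02 (adjusted p = 0.0547 for the latter). Of 37 cytosolic probe sets tested 13 were called higher, in 10 genes, and 1 lower. Of 25 mitochondrial ones 5 were called higher, in 5 genes, and 0 lower. Over all probe sets 28.1% were called higher and 15.7% lower. The counts include the 2 Farsa probe sets and the Lars2 probe set with a wild-type mean under the filter.

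Where an amino acid has a tested gene in each compartment, the 2 were set side by side, except for phenylalanine. In 11 of 14 pairs the log2 difference of the cytosolic gene was above that of the mitochondrial gene, with Eprs set against both Ears2 and Pars2. Among these pairs the widest gaps were for cysteine (1.43 against 0.01) and asparagine (1.11 against -0.18), and for tyrosine the values were 0.74 and -0.04. Each value is that of the gene's brightest probe set, and the cysteine and asparagine gaps depend on that choice. Other tested probe sets gave 0.08 and 1.62 for Cars2 and 0.06 for Nars. Serine was the 1 amino acid whose cytosolic and mitochondrial genes both rose with the arrays as deposited. The exceptions among the pairs were glutamate, histidine and tryptophan. Phenylalanine, left out of the pairs and with 2 cytosolic subunit genes, also went the other way (Fars2 0.99 against Farsa -0.36 and Farsb -0.44). The class medians, 0.21 and 0.09, differed by 0.12. Single replicate arrays spread by 0.15 (SD) in this measure, which is not a standard error of the difference between groups. The difference between the class medians was 0.45 and 0.47 under quantile and loess scaling and -0.25 with the mean of each gene's probe sets. Without knockout-labelled array 2 it was -0.09.

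Brightness differed between the classes. Genes tested were ranked by mean signal into 4 equal groups. From the dimmest to the brightest group the median log2 difference of all genes was 0.94, 0.34, -0.13 and -0.25. Of the 19 cytosolic genes 17 lay in the brightest group, where 15.1% of all genes were called higher and 35.3% lower, and 4 of these 17 rose; the other 2 lay in the next group and both rose. Of the 15 mitochondrial genes 5 lay in that next group (16.8% higher, 27.9% lower), with 1 risen, and 10 in the one below it (35.1% higher, 14.2% lower), with 2 risen. Signals of different probe sets are not levels of RNA that can be set against each other, so no order of abundance among the synthetases is given.

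The knockout-labelled arrays differed among themselves and most cytosolic synthetases followed 1 order. Of the 19 cytosolic genes 15 had their highest knockout-labelled value on array 2 and 15 their lowest on array 1. Among the 6 that rose, 5 were highest on array 2 and 6 lowest on array 1, while among all genes called higher 36.9% were highest on array 2 and 49.2% lowest on array 1. Shares among all genes tested, called or not, were not counted. The median difference of the 19 genes from their wild-type mean was 0.16, 0.43 and 0.16 on knockout-labelled arrays 1, 2 and 3 (0.14, 0.14 and 0.12 over all genes). Mitochondrial genes stood at 0.25, 0.13 and 0.08, with 8 of 15 highest on array 1, 6 highest on array 2 and 8 lowest on array 3. Without array 2 the cytosolic median difference was 0.06, in place of 0.21, and 5 cytosolic genes and 1 mitochondrial gene rose.

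Genes of the amino acid response, a list of Atf4 and known targets of it, were looked at on the same arrays. Of 25 tested 11 rose and 3 fell, with a median log2 difference of 0.62 (0.14 over all genes; 27.9% called higher and 20.8% lower). Atf3 and Vldlr, among those that rose, had a wild-type geometric mean of 77.1 and 57.1, under the filter, and so passed it only through the group where they were high. Asns, which makes asparagine, gave 3430, 3418 and 4819 against 10285, 15739 and 13795, a rise of 1.77 on the log2 scale (adjusted p = 0.000186). Mthfd2, a mitochondrial folate enzyme, rose by 2.18 (adjusted p = 2.57e-05). Stc2, a secreted glycoprotein, rose by 1.69 (adjusted p = 0.000158). Trib3, a pseudokinase that curbs Atf4, was at 103, 155 and 165 against 532, 2577 and 1316 and rose by 3.14 (adjusted p = 0.000937). Of the 11 genes that rose, 10 were highest on knockout-labelled array 2 and 11 lowest on array 1 (36.9% and 49.2% of all genes called higher). Atf4 itself, which is controlled mainly at translation, did not pass (4229, 3843 and 5940 against 3893, 7028 and 5927; log2 0.25, adjusted p = 0.42). The serine synthesis gene Psat1 and the arginine transporter Slc7a1 fell, by 0.43 and 0.73, as did Cebpb, a partner of Atf4 in binding DNA, which fell by 1.68; these 3 were picked from the list after their values were seen.

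**Figure D5:**
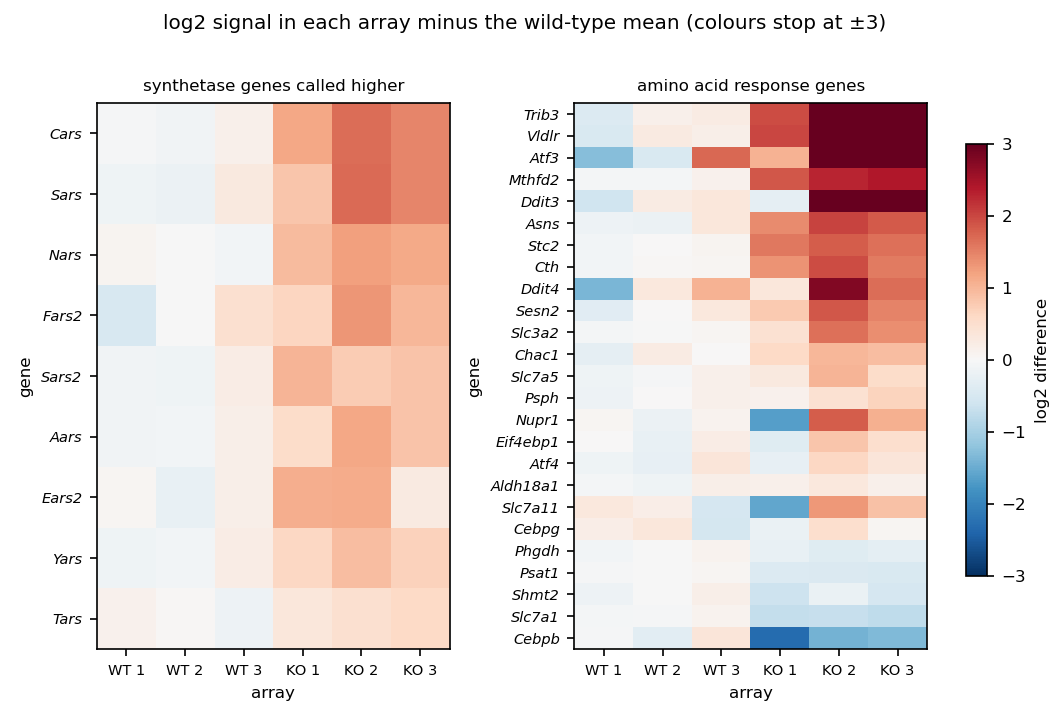
Log2 signal on each array (columns; WT wild type, KO knockout) minus the gene's wild-type mean, for the 9 synthetase genes that rose (left) and 25 amino acid response genes (right); red is higher, blue lower, and colours stop at 3 in either direction. Knockout-labelled array 2 has the deepest red in 7 of the 9 synthetase rows.

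Promoters from RefSeq (GRCm38.p6, 250 bases before to 50 after a transcript start) were found for 26 of the 35 genes. They were searched on both strands for TGATGNAA, the core of the C/EBP-ATF response element through which Atf4 acts. It was present in 5 of the 12 cytosolic promoters (Aars, Gars, Iars, Tars and Yars), in 0 of 14 mitochondrial ones and in 4.51% of all 27025 genes in the table. In the amino acid response list 7 of 22 genes had it. Of the 5 genes, Aars, Tars and Yars rose, while Gars and Iars did not pass (adjusted p = 0.359 and 0.154). Seen from the other side, 7 of the 9 genes that rose had a promoter, and 3 of these 7 held the motif. The stretches around these matches are shown because they hold the match, which is what the genes share. Capitals mark the match, on either strand, and each stretch reads 5′ to 3′ along the gene. The match begins 112 bases before the start in Aars, 30 before it in Gars and 15 before it in Tars, and at base 4 of the transcript in Yars and base 8 in Iars. The stretches lie at chr8:111033670-111033797 (plus strand, Aars), chr6:55037911-55038000 (plus, Gars), chr15:11399659-11399733 (minus, Tars), chr4:129189846-129189913 (plus, Yars) and chr13:49682077-49682144 (plus, Iars).
Aars: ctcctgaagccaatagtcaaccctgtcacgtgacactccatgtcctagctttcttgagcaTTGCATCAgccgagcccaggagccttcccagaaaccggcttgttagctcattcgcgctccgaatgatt
Gars: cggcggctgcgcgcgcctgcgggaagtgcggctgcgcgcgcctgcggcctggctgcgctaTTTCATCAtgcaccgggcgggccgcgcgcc
Tars: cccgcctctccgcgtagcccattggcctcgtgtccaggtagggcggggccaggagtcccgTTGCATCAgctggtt
Yars: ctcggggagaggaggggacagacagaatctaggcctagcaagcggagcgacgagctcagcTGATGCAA
Iars: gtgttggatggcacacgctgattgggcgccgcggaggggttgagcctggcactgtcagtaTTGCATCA

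Aars has a further match at base 10 of its transcript. The same promoters were searched for CCNCNCCC, a loose form of the CACCC element that Eklf binds, on both strands. It was present in 4 of 12 cytosolic and 12 of 14 mitochondrial promoters, against 51.9% of all genes in the table. Mitochondrial promoters had a median of 58.2% G and C, cytosolic ones 56.3% and all genes 52.8%, and the motif is itself mostly C. The part of base composition in these shares was not tested. Among the genes that rose the motif was in Sars, Tars, Yars, Fars2 and Ears2, 5 of the 7 with a promoter. Sars and Fars2 are shown as 1 gene of each compartment, with matches in capitals (chr3:108445264-108445352, minus strand, and chr13:36117525-36117624, plus strand). Only bases before the start are shown, and Sars has further matches that begin at bases 9 and 13 of its transcript. The E-box CACGTG was present in Aars, Farsb, Iars, Tars and Ears2, 5 of 26 genes, against 8.09% of all genes. A match describes these letters only and shows no binding.
Sars: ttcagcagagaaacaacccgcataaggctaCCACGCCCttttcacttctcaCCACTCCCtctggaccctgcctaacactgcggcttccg
Fars2: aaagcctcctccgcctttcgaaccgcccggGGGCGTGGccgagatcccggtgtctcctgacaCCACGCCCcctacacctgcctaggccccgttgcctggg

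Other genes of transfer RNA charging were counted by list, beside 27.9% of all genes called higher and 20.8% lower. Of 4 partners of mitochondrial charging, Gatc rose by 0.55 (adjusted p = 0.0195) and Qrsl1, with which it forms the amidotransferase that makes glutaminyl-tRNA in mitochondria, fell by 1.58 (adjusted p = 0.00428). Gatc did not pass without wild-type-labelled array 1 or knockout-labelled array 3 (adjusted p = 0.0796 and 0.0725). Qrsl1 went from 1124, 858 and 844 to 551, 231 and 238. Gatb and Mtfmt, which formylates the initiator, did not pass. Of 7 synthetase-like and proofreading genes 2 rose and 1 fell. Tarsl2, a second cytosolic threonine enzyme, stood at 486, 458 and 439 against 1280, 1119 and 1221 and rose 2.62-fold (log2 1.39 ± 0.17, adjusted p = 0.000218). Dtd2 and Dtd1, which clear mischarged transfer RNA, gave 1.03 (adjusted p = 0.0111) and -0.66 (adjusted p = 0.0144). Dtd2 lost its call under quantile (0.55, adjusted p = 0.155), loess (0.56, adjusted p = 0.129) and median scaling (0.22, adjusted p = 0.555), and with the mean or the second of its probe sets.

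Of 26 genes of transfer RNA maturation and export 2 rose and 8 fell, with a median of -0.19 (27.9% higher, 20.8% lower and a median of 0.14 over all genes). Adat2, a subunit of the deaminase that makes inosine in the anticodon, rose by 1.35 (adjusted p = 0.000313). Its partner Adat3, named after its values were seen, rose by 0.59 (adjusted p = 0.0227). Trmt6, of a tRNA methyltransferase, fell by 1.06 (adjusted p = 0.00273), Tsen34, of the splicing endonuclease, fell by 0.87 (0.00357) and Polr3e, of RNA polymerase III, fell by 0.89 (0.00384). Of 5 cytosolic elongation factor genes 4 rose (Eef1a1 0.91, Eef2 0.69, Eif5a 0.53, Eef1b2 0.46; adjusted p 0.0118 to 0.0475). After median centring none of these 4 passed, and Eef2, Eif5a and Eef1b2 were below 0. These 3 also lost their calls without wild-type-labelled array 1 or 2 or knockout-labelled array 2 or 3 (adjusted p 0.0597 to 0.164). Of 10 mitochondrial translation factors Gfm2 rose by 0.85 (adjusted p = 0.00695), Mtif3 fell by 1.11 (adjusted p = 0.0487) and 8 did not pass. Mtif3 lost its call without any 1 array other than knockout-labelled array 2 (adjusted p 0.0596 to 0.143).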

How the data were processed

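The authors deposited 1 linear MAS5 intensity for each probe set and array. The submitters' processing notes name MAS5 and Affymetrix Expression Console, with no version. Trimmed means of the arrays are equal in the deposited values, which leaves medians free to differ. Per the labels' protocols, target came from 10 micrograms of total RNA.

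Of 45101 probe sets, 34958 listed 1 gene, 932 several and 9211 were not listed; current RefSeq symbols (GRCm38.p6) were found by Entrez identifier for 34754. Signals under 1 (303 values) were set to 1 and log2 was taken. Each gene was represented by the probe set of highest mean log2 value, and those whose mean lay under the 40th percentile over the array were left out. limma 3.58.1 (R 4.3.3) compared the groups (lmFit, eBayes with a variance trend, two-sided, Benjamini-Hochberg over 12799 genes), and all 27023 probe sets above the filter in a second fit. Every adjusted p is limma's. The code was tested on simulated data.

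The synthetase genes, lists and tests were chosen with earlier results of these data known. All synthetase genes could be named; from related lists up to 4 genes with the smallest p were, with the scaffold genes and Klf1. Per the labels, RNA samples were independent, 3 per genotype. Same-numbered arrays deviated together by correlations of 0.0256, 0.007 and 0.0461, so the numbers were not taken to pair them. Alternatives covered scaling, offset, filter, variance model, probe set choice, replicate block and each array left out. Figures used matplotlib 3.10.9 in Python 3.11.15.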

Additional observations from a re-analysis of the deposited data

How the results depend on the processing

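The settings tried were 17, of which 6 left out an array. Differences that passed the test neither in a setting nor as reported were taken to have no direction. The count of cytosolic genes that rose, 6, was 10 after quantile normalization and 0 after median centring, and ran from 5 to 6 over the fits that left out an array. The count that fell, 0, was 9 after median centring, 1 with array weights and 1 with each gene's second probe set, and 0 to 1 over the fits that left out an array. For mitochondrial genes the count that rose, 3, was 0 after median centring, 1 after cyclic loess and 5 with the mean of probe sets, and 1 to 3 without an array. The count that fell, 0, was 9 after median centring and 1 with array weights, and 0 to 1 without an array. The cytosolic median, 0.21, was 0.44, 0.44 and -0.61 under quantile, loess and median scaling, and 0.058 to 0.27 without an array. The mitochondrial median, 0.09, was -0.0063, -0.036 and -0.72 under these scalings and 0.57 with the mean of probe sets, and 0.05 to 0.15 without an array. Their difference, 0.12, was 0.45, 0.47 and, with the mean of probe sets, -0.25, and ran from -0.090 to 0.21 without an array. The cause of these shifts was not tested.

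After median centring the sign turned and the test was passed for Cars2 (-0.81), Hars (-0.71), Iars2 (-0.72), Lars (-0.71), Rars (-0.80), Tars2 (-0.68), Wars (-0.70) and Mtfmt (-0.69). It turned and the call was lost for Tars (-0.34), Yars (-0.072), Gatc (-0.27), Eef2 (-0.12), Eif5a (-0.28) and Eef1b2 (-0.36), and Eif5a turned after quantile normalization too (-0.11). With the mean of probe sets the sign turned for Farsa (1.08), Lars2 (1.15) and Mtfmt (-1.07), and with the second probe set for Ears2 (-0.21), Lars2 (2.44), Mtfmt (-2.28), Dtd1 (0.29) and Trmt6 (0.71). With the replicate block 6 cytosolic and 2 mitochondrial genes rose: Ears2 and Tars lost their calls and Eprs gained one. Of the 9 synthetase genes that rose, 6 stayed called in all 6 fits that left out an array. Array number and signals near the filter, as for Ears2, limit what can be seen.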
